A study of Mus musculus with 9 samples.

Results

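The 9 genes Map3k4, Gadd45g, Map2k6, Cbx2, Kdm3a, Zfpm2, Six4, Insr and Igf1r encode proteins that act upstream of Sry, the Y-linked gene that starts testis development in mammals. They were chosen by name from the known inputs to Sry, and all 9 were found among the 15300 genes measured. Gonads of C57BL/6 mouse fetuses were dissected free of the mesonephros at the embryonic stage E13.5, frozen, and profiled by RNA sequencing in 3 groups of 3 samples. XX-WT samples were ovaries of XX Sox9flox/flox fetuses and XY-WT samples were testes of XY Sox9flox/flox fetuses, both labelled wildtype. XY-KO samples were testes of XY AMH-Cre; Sox9flox/flox fetuses, in which the promoter of the Sertoli cell hormone gene Amh drives the recombinase that removes Sox9. All 3 groups therefore carried the floxed alleles, and germ cells, interstitial cells and endothelial cells of XY-KO testes are not the target of this Cre. Whether a sample was 1 fetus or a pool is not stated, so the spread between these samples may be technical. The errors below rest on that spread, moderated by limma with the variance of the other genes.

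Sry is switched on for a short time in the supporting cell precursors of the XY gonad, and its product then activates Sox9. Several inputs set the time and level of that pulse in mice. GADD45G binds and activates the kinase MAP3K4, which works through MAP2K6 and p38 kinases on the transcription factor GATA4, and FOG2, the product of Zfpm2, is the cofactor of GATA4. KDM3A removes the repressive methyl groups of histone H3 lysine 9 at Sry, CBX2 is a Polycomb protein whose loss causes XY sex reversal, SIX4 acts on Zfpm2 and Nr5a1, and the insulin receptor family is needed for enough precursor cells and for Sry itself. E13.5 lies after the Sry pulse, and Amh-driven Cre acts in Sertoli cells that have already differentiated, so the comparisons ask how these genes stand in the sexes once testis and ovary have formed, and whether their levels in the testis depend on Sox9.

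The values are the authors' deposited comparisons of group with group, made with limma. No value of a single sample was analysed here, so group differences are given with their standard errors (SE) in place of sample values, and the depth of each sample is unknown. Sry was not among the genes measured. Sox9 was, and the authors' deposited table placed it at -2.76 (log2, SE 0.172, adjusted p 8.93e-07) in XY-KO against XY-WT, a level 6.78-fold lower. XY-KO still stood above XX-WT, at 1.71 in the authors' deposited table (limma adjusted p 8.14e-05), so Sox9 RNA was lowered in XY-KO and not absent. Tissue labels held against marker lists: all 7 Sertoli markers were lower and all 7 pre-granulosa markers higher in XX-WT than in XY-WT. All 7 Sertoli markers, the deleted gene Sox9 among them, fell in XY-KO against XY-WT. Limma called 0 of 7 pre-granulosa markers there, beside 2.27% of all genes. Of those 7, 2 had an unadjusted limma p under 0.05, beside 18.9% of all genes. Once a trend with base composition and length was removed, 1 of them rose. Of 10 skeletal muscle markers, 4 were among the genes measured, of which 3 were higher in XX-WT and 1 in XY-KO, each against XY-WT.

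Kdm3a carried the clearest difference of the 9 genes, with a level 2.48-fold higher in control ovaries than in control testes (95% interval 2.09 to 2.95). Igf1r differed the other way and was 1.62-fold lower in ovaries (95% interval 1.25 to 2.1). None of the 9 genes was called between XY-KO and XY-WT. Against control ovaries, XY-KO testes had lower Kdm3a, Cbx2 and Six4 and higher Zfpm2. The gonads were measured whole, so fewer cells of a type and less RNA per cell cannot be told apart in any of these results.

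The promoters of Kdm3a and Igf1r, the genes called between the control sexes, and of Six4, one of the genes called between XY-KO and XX-WT, are shown with the matches of 6 short motifs, since transcription factors of the gonad bind such sequences. Each holds the 250 bases before and the 50 bases after the start of transcription in the RefSeq annotation of GRCm38.p6, written on the strand of the gene. Capitals mark the motifs AACAAT and ACAAAG (SOX factors), GATAA (GATA factors), AAGGTCA (the nuclear receptor NR5A1), TCAGGTTTC (the MEF3 site, which SIX4 binds) and GGGCGG (GC box), on either strand; none of the 6 motifs contains another.
Kdm3a, chr6:71632868-71633167, minus strand: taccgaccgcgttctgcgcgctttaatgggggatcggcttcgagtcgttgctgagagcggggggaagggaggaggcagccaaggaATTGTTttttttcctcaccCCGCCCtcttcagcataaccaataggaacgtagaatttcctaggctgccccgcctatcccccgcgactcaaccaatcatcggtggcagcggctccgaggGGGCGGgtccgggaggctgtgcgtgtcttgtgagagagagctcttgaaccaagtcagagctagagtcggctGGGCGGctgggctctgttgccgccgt
Igf1r, chr7:67952007-67952306, plus strand: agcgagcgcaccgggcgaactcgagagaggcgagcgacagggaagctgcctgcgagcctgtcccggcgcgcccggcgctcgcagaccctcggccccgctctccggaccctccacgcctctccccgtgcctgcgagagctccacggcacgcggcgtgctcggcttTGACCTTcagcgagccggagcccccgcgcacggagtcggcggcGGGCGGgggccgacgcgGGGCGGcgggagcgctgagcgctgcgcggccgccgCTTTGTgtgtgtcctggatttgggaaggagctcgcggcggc
Six4, chr12:73113196-73113495, minus strand: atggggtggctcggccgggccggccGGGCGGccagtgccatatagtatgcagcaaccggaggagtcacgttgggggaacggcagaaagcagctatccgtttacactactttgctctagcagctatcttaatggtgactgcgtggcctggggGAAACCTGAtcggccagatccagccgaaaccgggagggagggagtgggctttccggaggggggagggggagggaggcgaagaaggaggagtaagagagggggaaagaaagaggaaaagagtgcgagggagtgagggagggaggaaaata
The first of 3 Kdm3a promoters in the annotation held AACAAT once, on the opposite strand from -165, and the GC box 3 times. AACAAT stood in neither the second nor the third. The Igf1r promoter held AAGGTCA once (opposite strand, from -86), ACAAAG once (opposite strand, from 10, counted with the start as the first base) and the GC box at -43 and -26. In the first of 2 Six4 promoters stood TCAGGTTTC, the site of its own protein family, on the opposite strand from -99, with the GC box once. The second Six4 promoter held no TCAGGTTTC. Of all 32851 promoters in the RefSeq table, 10.7% held AACAAT, 18.7% ACAAAG, 25.4% GATAA, 4.72% AAGGTCA, 0.429% TCAGGTTTC and 35.7% GGGCGG. No GATAA stood in the printed windows of Kdm3a, Igf1r or Six4, while the first and the third Map2k6 promoters each held it once. CpG pairs numbered 24 in the Kdm3a window, 48 in that of Igf1r and 16 in that of Six4, against a median of 7 over all promoters. Promoter sequences were found for 6 of the 9 genes. The motifs were picked with the matches in view, and a match is a description of letters.

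The levels in each group set the scale for the differences. They were derived from the authors' deposited mean and fold changes, with equal weight for the groups, as log2 counts scaled to a common library total (CPM), and carry no error of their own. By mean level over all samples, Kdm3a stood higher than 93.5% of the genes measured, Insr than 90.1% and Zfpm2 than 89.5%, while Gadd45g stood higher than 33.6%. Per kilobase of the longest annotated transcript, which allows genes to be compared, Kdm3a and Zfpm2 had the highest levels in XY-WT, at 14.4 and 11.8 CPM per kb. Insr followed at 7.88 CPM per kb, and the other 6 genes lay between 3.89 for Six4 and 5.43 for Map3k4. Gadd45g has a short transcript of 1071 nt, and its level per kb was 4.92, beside 5.43 for its partner Map3k4. That closeness rests on the choice of the longest transcript: with the mean transcript length, the mean log2 level per kb over all samples went from 2.35 to 3.6 for Map3k4 and from 1.97 to 2.12 for Gadd45g.

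**Figure D1:**
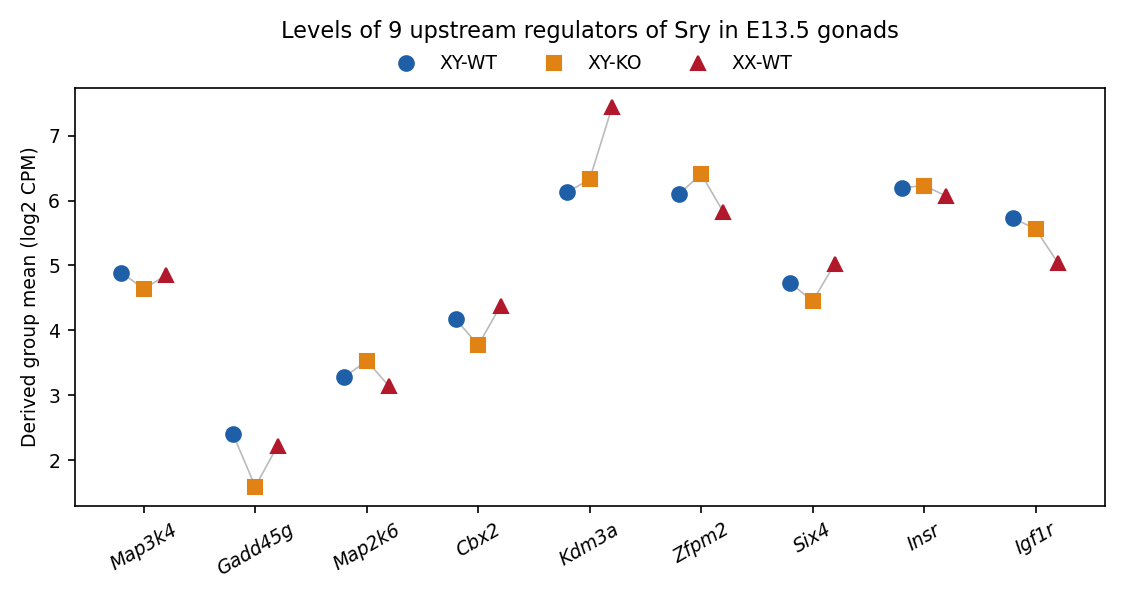
Derived group means of the 9 genes in log2 CPM (y axis) for XY-WT (circles), XY-KO (squares) and XX-WT (triangles); grey lines join the groups of a gene. Kdm3a stands at 7.44 in XX-WT against 6.13 and 6.33 in the testes, Igf1r is lowest in XX-WT at 5.04, and the 3 points of Insr lie within 0.16.

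The first comparison, XX-WT against XY-WT, gives the sex difference of each gene in control gonads. By the limma test of the authors' deposited table, 2 of the 9 genes passed an adjusted p under 0.05, 1 higher and 1 lower, which is 22.2% of them beside 23.3% of all genes (percent called, 10.9 higher and 12.4 lower). The median of the 9 was -0.14 on the log2 scale, against 0.00 over all genes, and the median size of the difference was 0.22, against 0.32 over all genes.

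Kdm3a (ENSMUSG00000053470, chromosome 6, 71588972 to 71632990, minus strand, GRCm38) encodes a JmjC demethylase that removes repressive H3K9 methylation. Its derived level was 174 CPM in XX-WT, 80.6 in XY-KO and 70.0 in XY-WT. The ovary stood apart and the testes lay close together. The authors' deposited table gave 1.31 for XX-WT against XY-WT (SE 0.117, adjusted p 7.77e-07), 0.20 for XY-KO against XY-WT (SE 0.12, adjusted p 0.377) and -1.11 for XY-KO against XX-WT (SE 0.118, adjusted p 6.48e-06). Both calls of Kdm3a remained under every alternative adjustment tried, Bonferroni included. For the difference between the testes, the 95% interval ran from a ratio of 0.965 to 1.37, and a change of 1.39-fold would have been called.

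Among the other H3K9 enzymes, Suv39h1 was the single gene called of 11 in XX-WT against XY-WT. This methyltransferase gene, on chromosome X, stood at 0.44 in the authors' deposited table (limma SE 0.134, adjusted p 0.0254). It was also the single gene of these 11 called in XY-KO against XX-WT, at -0.44 in the authors' deposited table (limma adjusted p 0.0292). Over all genes, 23.3% were called in XX-WT against XY-WT and 18.3% in XY-KO against XX-WT. The close relatives of Kdm3a gave 0.05 for Kdm3b (adjusted p 0.803) and -0.03 for Jmjd1c (adjusted p 0.863) in XX-WT against XY-WT in the authors' deposited table. Ehmt1 and Ehmt2, which encode the GLP and G9a methyltransferases that place the mark KDM3A removes, stood at 0.29 (adjusted p 0.165) and 0.03 (adjusted p 0.915) there. The median of all 12 enzymes in that comparison was 0.05. In XY-KO against XY-WT, 0 of the 12 was called by limma, beside 2.27% of all genes. Of the 12, 1 had an unadjusted limma p under 0.05 there, beside 18.9% of all genes.

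Marker lists of several cell types moved in the same comparisons as Kdm3a, in both directions. In XX-WT against XY-WT, 5 of 8 general germ cell markers (median 0.66), 6 of 7 meiotic markers (median 2.10), all 7 pre-granulosa markers (median 3.89) and 4 of 5 mesonephric markers (median 2.17) were higher. All 4 measured male germ cell markers (median -5.49), all 8 interstitial markers (median -1.97) and all 7 Sertoli markers (median -6.23) were lower. So were all 4 measured fetal Leydig cell markers (median -5.76). In XY-KO against XX-WT, 6 of the 8 general, 6 of the 7 meiotic and all 7 pre-granulosa markers were lower, while all 4 male germ cell markers were higher (median 4.85). In XY-KO against XY-WT, Kdm3a stood at 0.20 and was not called. The medians there were -0.35 for general germ cell markers, 0.14 for meiotic and -0.35 for male germ cell markers. Limma called none of these 3 lists' genes, beside 2.27% of all genes. At an unadjusted limma p under 0.05 the lists held 1, 0 and 0 genes, beside 18.9% of all genes. The part of these cell types in the Kdm3a difference was not tested.

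Igf1r (ENSMUSG00000005533, chromosome 7, 67952827 to 68233668, plus strand) encodes the type 1 receptor for insulin-like growth factors. Its derived level was 53.1 CPM in XY-WT, 47.3 in XY-KO and 32.8 in XX-WT, so the ovary was the lowest. The authors' deposited table placed it at -0.69 in XX-WT against XY-WT (SE 0.176, adjusted p 0.0095) and at -0.17 in XY-KO against XY-WT (SE 0.175, adjusted p 0.647). Against XX-WT, XY-KO stood at 0.53 in the authors' deposited table (limma SE 0.179), 1.44-fold above, with an adjusted p of 0.0527 and a 95% interval of 1.11 to 1.88. The call between the control sexes was lost with a Bonferroni adjustment. All 8 interstitial, all 7 Sertoli, all 4 measured fetal Leydig and all 4 measured male germ cell markers were lower in XX-WT in the same comparison. All 7 pre-granulosa, 6 of 7 meiotic, 5 of 8 general germ cell and 4 of 5 mesonephric markers were higher, as given above. The part of these cells in the Igf1r difference was not tested.

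Insr (ENSMUSG00000005534, chromosome 8, 3122061 to 3279617, minus strand), the gene of the insulin receptor, was measured most precisely of the 9 and had the smallest range over the groups. Its derived levels were 73.7 CPM in XY-WT, 74.8 in XY-KO and 67.0 in XX-WT. The authors' deposited tables gave -0.14 for XX-WT against XY-WT (SE 0.108, adjusted p 0.396), 0.02 for XY-KO against XY-WT (SE 0.109, adjusted p 0.938) and 0.16 for XY-KO against XX-WT (SE 0.11, adjusted p 0.371). Between the testes the 95% interval of the ratio was 0.864 to 1.19, and between the control sexes it was 0.775 to 1.07.

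The other genes of insulin and IGF signalling differed more between the sexes than the receptors. Of 22 measured, 4 were higher and 4 lower in XX-WT than in XY-WT, beside 10.9% and 12.4% of all genes. The ligand Igf1 was 2.15-fold higher (95% interval 1.77 to 2.6), at 1.10 in the authors' deposited table (limma SE 0.13, adjusted p 1.38e-05). The binding protein Igfbp7 was 6.75-fold lower (95% interval 5.39 to 8.46), at -2.76 in the authors' deposited table (limma SE 0.153, adjusted p 6.06e-09). Irs2, an adaptor that couples both receptors to PI3 kinase, was lower at -1.93 in the authors' deposited table (limma adjusted p 0.000112), as was Grb10, an inhibitor of both receptors, at -0.67 (adjusted p 0.00133). None of the 22 was called by limma in XY-KO against XY-WT, beside 2.27% of all genes. Of the 22, 8 had an unadjusted limma p under 0.05, beside 18.9% of all genes. Against XX-WT, 4 were higher and 4 lower in XY-KO, beside 9.16% and 9.11% of all genes. The smallest adjusted p among the higher belonged to Igfbp7, at 2.38 in the authors' deposited table (limma adjusted p 5.17e-08). That among the lower belonged to Igfbp2, at -1.87 (adjusted p 1.03e-06) by the authors' deposited table.

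**Figure D2:**
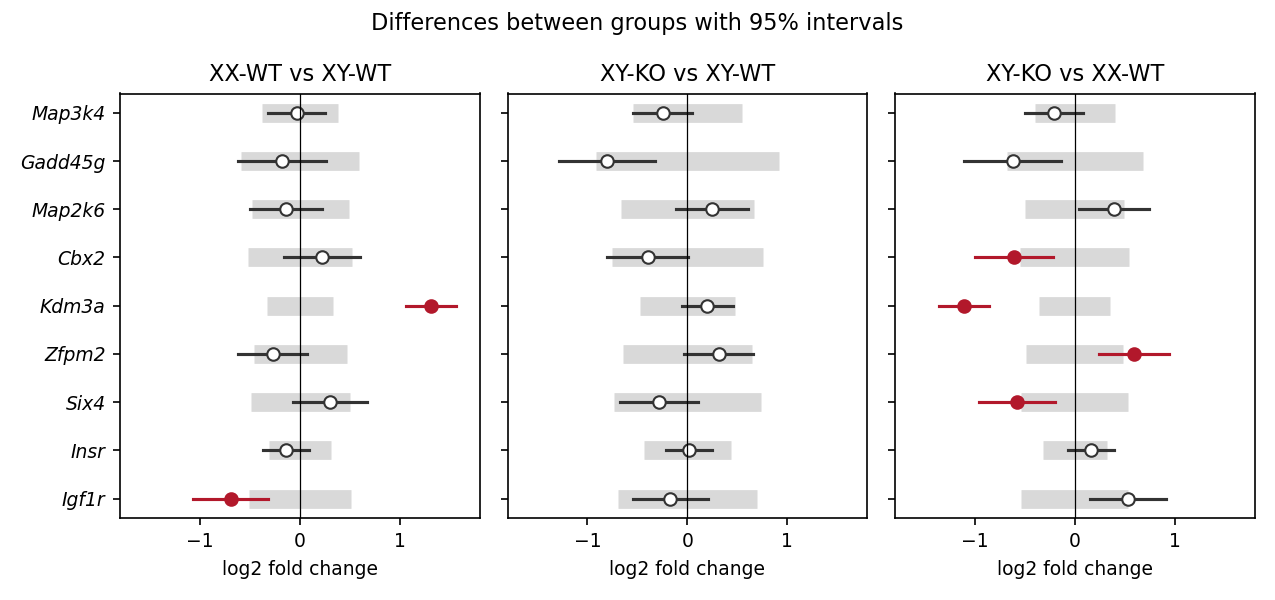
Log2 fold change (x axis) of each gene in the 3 comparisons, with 95% intervals as lines; filled red points passed an adjusted p under 0.05 and open points did not, and the grey band spans changes too small to pass at that gene's SE. In the middle panel all 9 points lie inside the band, with Gadd45g at -0.80 nearest its edge, while 4 points pass in the right panel.

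The second comparison, XY-KO against XY-WT, asks whether the regulators depend on Sox9 in the formed testis, where its RNA was lowered and not absent. By the same test of the authors' deposited table, 0 of the 9 genes passed, beside 2.27% of all genes (percent called, 0.699 higher and 1.57 lower), and 1 had an unadjusted p under 0.05, beside 18.9% of all genes. The median of the 9 was -0.17, against -0.01 over all genes, and the median size was 0.25, against 0.23 over all genes. The smallest change that would have been called ran from 1.35-fold for Insr to 1.89-fold for Gadd45g, so smaller dependence was not detectable.

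Gadd45g (ENSMUSG00000021453, chromosome 13, 51846678 to 51848468, plus strand), which encodes the activator of MAP3K4, was the gene with the unadjusted p under 0.05. Its derived level was 5.27 CPM in XY-WT, 4.64 in XX-WT and 3.02 in XY-KO, so XY-KO was the lowest. In the authors' deposited table it stood at -0.80 in XY-KO against XY-WT (SE 0.229, unadjusted p 0.00307, adjusted p 0.0818) and at -0.62 against XX-WT (SE 0.229, adjusted p 0.0735). The control sexes differed by -0.18 in the authors' deposited table (limma SE 0.207, adjusted p 0.573). With the Benjamini-Hochberg adjustment made over the 3 comparisons together, the adjusted p against XY-WT was 0.0268. With the trend of base composition and length removed, the same difference was -0.42 and its adjusted p 0.404. The GC content of the short transcript is 59.9%. That trend was fitted on genes with a mean log2 level of 3.19 or more, and Gadd45g, at 2.07, lies outside that fit.

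Map3k4 (ENSMUSG00000014426, chromosome 17, 12227621 to 12318796, minus strand), the kinase that GADD45G switches on, had derived levels of 29.6 CPM in XY-WT, 28.9 in XX-WT and 24.9 in XY-KO. None of its differences passed: the authors' deposited tables gave -0.03 between the control sexes (SE 0.134, adjusted p 0.889), -0.24 for XY-KO against XY-WT (SE 0.137, adjusted p 0.35) and -0.21 for XY-KO against XX-WT (SE 0.136, adjusted p 0.33). Between the control sexes the 95% interval of its ratio was 0.803 to 1.19.

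Map2k6 (ENSMUSG00000020623, chromosome 11, 110399122 to 110525522, plus strand), the kinase below MAP3K4 that activates p38, had derived levels of 11.6 CPM in XY-KO, 9.72 in XY-WT and 8.81 in XX-WT. The authors' deposited tables gave -0.14 between the control sexes (SE 0.171, adjusted p 0.597), 0.25 for XY-KO against XY-WT (SE 0.167, adjusted p 0.443) and 0.39 for XY-KO against XX-WT (SE 0.165, unadjusted p 0.0316, adjusted p 0.122). In XY-KO the activator Gadd45g was thus at its lowest of the 3 groups and Map2k6 at its highest, with neither difference called.

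Around these 3 genes, the p38 cascade list held 20 other genes measured. In XX-WT against XY-WT, 1 of the 20 was higher and 3 were lower, beside 10.9% and 12.4% of all genes. Mapk14, the gene of the main p38 kinase, was 1.6-fold higher in XX-WT, at 0.68 in the authors' deposited table (limma SE 0.141, adjusted p 0.00224). Mapk13, another p38 gene, was 6.7-fold lower (95% interval 4.36 to 10.3), at -2.74 in the authors' deposited table (limma SE 0.291, adjusted p 4.98e-06). Its derived level was 9.15 CPM in XY-WT, 5.46 in XY-KO and 1.37 in XX-WT, and XY-KO stayed above XX-WT at 2.0 in the authors' deposited table (limma adjusted p 0.000195). Mapkapk2 encodes a kinase that p38 phosphorylates. It was the single gene of the 20 called in XY-KO against XY-WT, beside 2.27% of all genes. Its value there was -0.79 in the authors' deposited table (limma SE 0.193, adjusted p 0.0455). With the trend of base composition and length removed, Mapkapk2 stood at -0.51 there (adjusted p 0.213).

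The third comparison, XY-KO against XX-WT, shows how far testes with lowered Sox9 still differed from the ovary. The derived level of Sox9 itself was 13.2 CPM in XY-KO and 4.02 in XX-WT. By the test of the authors' deposited table, 4 of the 9 genes passed, 1 higher and 3 lower, which is 44.4% of them beside 18.3% of all genes (percent called, 9.16 higher and 9.11 lower). The median size of the difference was 0.58, against 0.27 over all genes, and 7 of the 9 had an unadjusted p under 0.05, beside 29.5% of all genes. This comparison shares the XX-WT samples with the first and the XY-KO samples with the second. At an adjusted p under 0.01 or a 2-fold limit, Kdm3a was the one gene left of the 4.

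Cbx2 (ENSMUSG00000025577, chromosome 11, 119022962 to 119031270, plus strand) encodes a chromobox subunit of Polycomb repressive complex PRC1. The derived level of Cbx2 was 20.9 CPM in XX-WT, 18.0 in XY-WT and 13.7 in XY-KO. The difference of the outer groups passed and those of neighbours did not: the authors' deposited tables gave -0.61 for XY-KO against XX-WT (SE 0.184, adjusted p 0.0303), -0.39 for XY-KO against XY-WT (SE 0.189, adjusted p 0.275) and 0.22 between the control sexes (SE 0.178, adjusted p 0.419). With the trend of base composition and length removed, these were -0.60 (adjusted p 0.0325), -0.15 (adjusted p 0.774) and 0.46 (adjusted p 0.0798). XY-WT thus stayed between the outer groups, while its distance from each depended on the processing.

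Of the 16 other PRC1 genes, 3 were lower and none higher in XY-KO than in XX-WT. Over all genes, 18.3% were called in that comparison. Pcgf5, a RING partner of variant PRC1, was 3.08-fold lower (95% interval 2.16 to 4.39), at -1.62 in the authors' deposited table (limma SE 0.241, adjusted p 0.000169). It was also higher in XX-WT than in XY-WT, at 1.29 in the authors' deposited table (limma SE 0.233, adjusted p 0.000745). Phc2, a polyhomeotic subunit, had the smallest adjusted p of the 2 PRC1 genes lower in XX-WT than in XY-WT, at -0.65 in the authors' deposited table (limma adjusted p 0.012); with the trend of base composition and length removed it stood at -0.30 (adjusted p 0.232). None of the 16 was called by limma in XY-KO against XY-WT, beside 2.27% of all genes. Of the 16, 1 had an unadjusted limma p under 0.05, beside 18.9% of all genes.

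Six4 (ENSMUSG00000034460, chromosome 12, 73099609 to 73113456, minus strand) encodes a homeobox factor, and its first annotated promoter is printed above with a MEF3 match. Its derived levels were 32.7 CPM in XX-WT, 26.5 in XY-WT and 21.9 in XY-KO. This is the order seen for Cbx2, and again only the outer groups differed past the test: the authors' deposited tables gave -0.58 for XY-KO against XX-WT (SE 0.178, adjusted p 0.0328), -0.28 for XY-KO against XY-WT (SE 0.182, adjusted p 0.43) and 0.30 between the control sexes (SE 0.174, adjusted p 0.238). General germ cell markers were lower in the same comparison (6 of 8, median -1.0), as were 6 of 7 meiotic markers (median -2.2), all 7 pre-granulosa markers (median -3.11) and 4 of 5 mesonephric markers (median -2.22). All 4 male germ cell markers, all 8 interstitial markers (median 1.72), all 4 measured fetal Leydig cell markers (median 5.55) and 6 of 7 Sertoli markers (median 5.12) were higher. Of the 4 measured skeletal muscle markers, 0 was called by limma, or had an unadjusted p under 0.05. The part of these cells in the Cbx2 and Six4 differences was not tested.

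Of the 8 other genes measured in the list around Six4, Eya1 and Dach1 were called in XX-WT against XY-WT, in opposite directions. Over all genes, 23.3% were called there. None of the 8 was called by limma in XY-KO against XY-WT, beside 2.27% of all genes. Of the 8, 1 had an unadjusted limma p under 0.05 there, beside 18.9% of all genes. Eya1, whose protein is a coactivator for SIX4, was 4.43-fold lower in XX-WT than in XY-WT (95% interval 2.81 to 6.99), at -2.15 in the authors' deposited table (limma SE 0.309, adjusted p 9.71e-05). The level of Eya1 was 11.4 CPM in XY-KO, 10.5 in XY-WT and 2.37 in XX-WT. Dach1, a corepressor that joins EYA proteins, was 4.12-fold higher in XX-WT (95% interval 3.07 to 5.54), at 2.04 in the authors' deposited table (limma SE 0.2, adjusted p 2.27e-06). XY-KO testes differed from XX-WT in both, with Eya1 at 2.27 (adjusted p 6.8e-05) and Dach1 at -1.69 (adjusted p 1e-05), both from the authors' deposited table.

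Zfpm2 (ENSMUSG00000022306, chromosome 15, 40655035 to 41104592, plus strand), the gene of the GATA4 cofactor FOG2, ran in the opposite order. The derived level of Zfpm2 was 85.1 CPM in XY-KO, 68.4 in XY-WT and 56.6 in XX-WT. The authors' deposited tables gave 0.59 for XY-KO against XX-WT (SE 0.162, adjusted p 0.0181), 0.32 for XY-KO against XY-WT (SE 0.161, adjusted p 0.303) and -0.27 between the control sexes (SE 0.161, adjusted p 0.243). XY-KO was therefore 1.51-fold above XX-WT (95% interval 1.18 to 1.91), with XY-WT between them and not called different from either. All 8 interstitial markers (median 1.72) and all 4 measured fetal Leydig cell markers (median 5.55) were higher in XY-KO than in XX-WT. So were all 4 measured male germ cell markers (median 4.85) and 6 of 7 Sertoli markers (median 5.12). All 7 pre-granulosa, 6 of 7 meiotic, 6 of 8 general germ cell and 4 of 5 mesonephric markers were lower. The part of these cells in the Zfpm2 difference was not tested.

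The GATA factors that FOG2 binds differed by sex in both directions. Gata4, the partner of FOG2 at Sry, was 1.65-fold lower in XX-WT than in XY-WT (95% interval 1.27 to 2.16), at -0.73 in the authors' deposited table (limma SE 0.181, adjusted p 0.0083). With the trend of base composition and length removed it stood at -0.49, and its adjusted p was 0.0668. Gata2 was 11.2-fold higher in XX-WT (95% interval 7.73 to 16.1), at 3.48 in the authors' deposited table (limma SE 0.249, adjusted p 8.27e-08), and its derived level was 1.64 CPM in XY-KO and 1.66 in XY-WT. Of the 6 other GATA and FOG genes measured, 3 were higher and 1 lower in XX-WT than in XY-WT. Over all genes, 10.9% were higher and 12.4% lower there. In XY-KO, 3 of the 6 were lower than in XX-WT, beside 9.11% of all genes. None of the 6 was called by limma in XY-KO against XY-WT, beside 2.27% of all genes. An unadjusted limma p under 0.05 was reached there by 0 of 6, beside 18.9% of all genes.

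**Figure D3:**
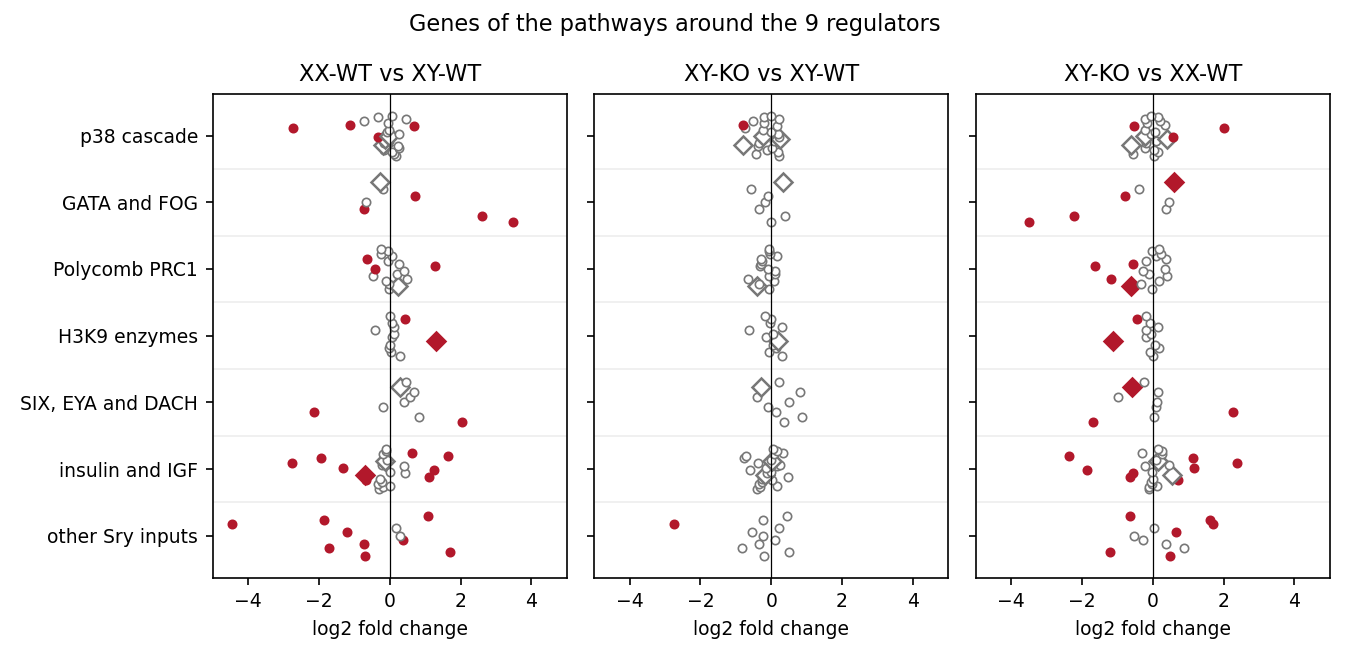
Log2 fold change (x axis) of every measured gene in 7 lists around the regulators, one panel per comparison; diamonds are the 9 regulators, circles the other genes, and filled red symbols passed an adjusted p under 0.05. In the middle panel the only filled symbols are Mapkapk2 at -0.79 and Sox9 at -2.76, whereas the outer panels hold calls in every list.

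A last list held other genes of the early gonad and of Sry regulation, together with Sox9, which acts below Sry, the growth factor gene Fgf9, and Gata4, which is also counted among the GATA genes. Of 11 measured, 3 were higher and 6 lower in XX-WT than in XY-WT, with Sox9, Fgf9 and Gata4 among the 6. Over all genes, 10.9% were higher and 12.4% lower there. Sox9 was the single gene of the list called in XY-KO against XY-WT, beside 2.27% of all genes. Of the 11, Sox9 included, 5 had an unadjusted limma p under 0.05, beside 18.9% of all genes. Emx2, a homeobox gene needed for early gonad growth, was 3.28-fold higher in XX-WT (95% interval 2.63 to 4.08), at 1.71 in the authors' deposited table (limma SE 0.148, adjusted p 5.81e-07). It was 2.33-fold lower in XY-KO than in XX-WT, at -1.22 in the authors' deposited table (limma adjusted p 2.59e-05). Tcf21, a basic helix-loop-helix factor, was higher in XY-KO than in XX-WT at 1.63 in the authors' deposited table (limma SE 0.197, adjusted p 2.48e-05).

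Genes with a pattern like those of Kdm3a and Igf1r were sought by the distance between their 3 log2 fold changes, over 3 group means, among genes within 2 log2 units of mean level. Nearest to Kdm3a were 4930447C04Rik (distance 0.054), Myl9 (0.154) and Pam (0.163). The authors' deposited tables placed 4930447C04Rik at 1.27 between the control sexes (adjusted p 0.00122) and at 0.17 in XY-KO against XY-WT. Nearest to Igf1r were Rcn1 (distance 0.018), Inppl1 (0.029) and Tmod3 (0.04), with Inppl1 at -0.72 between the control sexes (adjusted p 0.000934) by the authors' deposited table. With 3 group means, many genes share such a pattern.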

How the data were processed

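RNA from 9 gonad samples was, per the labels' protocols, purified on columns, amplified by SPIA and read from both ends, 150 nt each. The submitters' processing notes list GRCm38 and, as tools, limma 3.24.0, HTSeq 0.6.1p1, TopHat2 2.0.8 and Trimmomatic 0.30; strand use, weights and the gene filter are not given in the sources used here. The 3 deposited tables hold, per the file headers, the authors' log2 fold change and mean log2 expression, limma scores (moderated t and log-odds), p-values and Benjamini-Hochberg adjusted p-values. The mean is taken as log2 CPM because its antilogs sum to 978109.

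SE was obtained by dividing each fold change by its t, and intervals use the 15.27 degrees of freedom that t and p imply in every table. Fold changes added up within 0.005, and recomputed adjusted p matched within 0.000769. Genes were called at an adjusted p under 0.05 over all 15300 genes. The smallest callable change is the smallest t called times the SE. A trend with GC content and length (GENCODE M21, 15192 genes; robust regression of degree 3, statsmodels 0.14.6) was removed as an alternative; the scripts were tested on simulated data. Symbols were matched to Ensembl IDs through GENCODE M21, and no exon of another annotated gene overlaps those of the 9. The regulators and lists were chosen with earlier results of these data known. Named genes are the 9, Sox9, the gene of each list with the smallest adjusted p per direction and comparison, and 3 nearest patterns of 2 members; relatives and partners named beside them were chosen after their values were seen. Depth of the samples is unknown. Python 3.11.15 was used.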

Additional observations from a re-analysis of the deposited data

How the results depend on the processing

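Results were recomputed with an adjusted p under 0.01, a 2-fold limit, the more highly expressed genes alone (mean of 3.19 or more, the median), one adjustment over the 3 comparisons, Bonferroni adjustment, the GC and length trend removed, and the median of all genes subtracted. For XX-WT against XY-WT the count of 2 regulators called went to 1 with the 2-fold limit and to 1 with Bonferroni adjustment, Kdm3a in both; Igf1r lost its call with Bonferroni adjustment (adjusted p 1). For XY-KO against XX-WT the count of 4 went to 1 at an adjusted p under 0.01, with the 2-fold limit and with Bonferroni adjustment, Kdm3a in each. For XY-KO against XY-WT the count of 0 went to 1, Gadd45g, with one adjustment over the 3 comparisons, under which 375 genes were higher and 547 lower in place of 107 and 240. With the trend removed, 3 differences that had not been called changed sign and stayed uncalled: Map3k4 and Gadd45g between the control sexes, both to 0.10, and Insr in XY-KO against XY-WT, to -0.06. The other 24 of the 27 single-gene differences kept their direction and their side of the threshold there. Gadd45g lies below the median expression and has no value in that alternative. Levels per kb used the longest transcript; with the mean transcript length the mean level of Igf1r, for example, moved from 1.93 to 3.69 and that of Six4 from 1.97 to 2.01 (log2), so the order between genes rests on that choice. No paired analysis was possible because the tables hold group comparisons and no values by sample, and for the same reason no replicate could be left out.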

Other observations

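KDM3A belongs to a larger family of histone demethylases and JmjC proteins, of which 26 genes named as such were measured; this set was chosen after the values of Kdm3a were seen. In XX-WT against XY-WT, 5 were higher and 4 lower, beside 10.9% and 12.4% of all genes. Kdm5d and Uty, both on chromosome Y, are among the 4 lower. In XY-KO against XY-WT, 0 were called by limma, beside 2.27% of all genes, and 4 had an unadjusted p under 0.05, beside 18.9%. Kdm3a had the largest difference of the autosomal genes, at 1.31. Kdm6a, on chromosome X, which removes H3K27 methylation and escapes X inactivation, was 1.95-fold higher in XX-WT (95% interval 1.66 to 2.29), at 0.96 in the authors' deposited table (limma adjusted p 9.59e-06). Kdm5c, an X-linked relative also known to escape, stood at 0.10 in the authors' deposited table and was not called (adjusted p 0.644). The flavin-dependent demethylase gene Kdm1b was higher at 0.59 (adjusted p 0.00853), Kdm2b, whose protein recruits a variant PRC1 to CpG islands, at 0.52 (adjusted p 0.0139), and Kdm5a at 0.49 (adjusted p 0.0138), all from the authors' deposited table. With the trend of base composition and length removed, Kdm5a stood at 0.37 and was not called (adjusted p 0.058). Kdm7a was 1.79-fold lower in XX-WT, at -0.84 (adjusted p 0.000144), and Phf8, also on chromosome X, stood at -0.41 (adjusted p 0.0318), both from the authors' deposited table. The Y-linked Kdm5d and Uty were lower in XX-WT, at -5.48 and -5.65 in the authors' deposited table.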
